A study of Mus musculus with 6 samples.

Results

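The genes described here are 10 genes of the kidney's intercalated cells: the transcription factor genes Foxi1 and Dmrt2, the transporter and channel genes Slc4a1, Aqp6, Slc26a4 and Slc4a9, and the proton pump subunit genes Atp6v1b1, Atp6v1g3, Atp6v0a4 and Atp6v0d2. They were chosen by name for their role in acid and base transport, though with earlier results of these data known. Each symbol was found on the array, on exactly 1 transcript cluster (a set of probes read as 1 value, roughly a gene), so 10 of 19505 genes with a symbol are described. By the cluster identifiers, Foxi1 and Slc4a1 lie on chromosome 11, Atp6v1b1 and Atp6v0a4 on chromosome 6, and the others on chromosomes 1 (Atp6v1g3), 4 (Atp6v0d2), 12 (Slc26a4), 15 (Aqp6), 18 (Slc4a9) and 19 (Dmrt2). The arrays were made from tubular epithelial cells that collagenase had released from mouse kidneys after 30 min of ischemia followed by 24 h of reperfusion. The IR PT2385 group (3 arrays, named IRPT in the labels) came from mice given PT2385, an inhibitor of the hypoxia-inducible factor HIF-2α, in doses of 10 mg/kg. The first injection came 16 h ahead of surgery and the others 1 h, 8 h and 20 h afterwards. The IR vehicle group (3 arrays, named IR) came from mice that had the same surgery and received vehicle. The protocol spells the injected compound PT2384 once, and the assignment of IRPT to the drug arm rests on the sample names. The labels used here give no strain, age or sex, do not say whether each array is 1 animal, and include no kidney without ischemia. Every difference is therefore between the drug and vehicle groups after injury, and these groups also differed in Y-linked transcripts, as given below.

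Intercalated cells lie among the principal cells of the connecting tubule and collecting duct and set the final acidity of urine. Type A cells pump protons into the urine with a vacuolar H+-ATPase (V-ATPase) on their luminal side and return bicarbonate to the blood through the anion exchanger encoded by Slc4a1. Type B cells run the other way and secrete bicarbonate through pendrin, the product of Slc26a4. In humans, inherited loss of SLC4A1, ATP6V1B1, ATP6V0A4 or FOXI1 function causes distal renal tubular acidosis, and loss of SLC26A4 function causes Pendred syndrome. Foxi1, a forkhead factor, is required in mice for intercalated cells to form and to express pumps and exchangers.

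Because Foxi1 is a forkhead protein and PT2385 acts on a hypoxia-inducible factor, the promoters of the genes were searched for the forkhead letters TGTTTAC, for TGTTNAC, which includes them, and for ACGTG, the core of the hypoxia response element. The RefSeq promoter sequences (GRCm38.p6) reach from 250 bases before to 50 bases after the gene start, and both strands were read. Of the genes, 7 had a sequence that was searched, and Slc4a1, Slc4a9 and Atp6v0d2 were not searched. The sequences with a match are shown 5′ to 3′ along the gene's own strand, with the matched letters in capitals.
Atp6v1b1 promoter, chr6:83742767-83743066, plus strand: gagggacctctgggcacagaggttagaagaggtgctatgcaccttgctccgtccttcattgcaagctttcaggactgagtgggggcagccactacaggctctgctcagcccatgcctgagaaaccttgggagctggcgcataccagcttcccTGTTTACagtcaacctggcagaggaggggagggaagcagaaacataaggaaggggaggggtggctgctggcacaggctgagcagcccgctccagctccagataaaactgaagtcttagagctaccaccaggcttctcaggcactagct
Atp6v1g3 promoter, chr1:138273488-138273787, plus strand: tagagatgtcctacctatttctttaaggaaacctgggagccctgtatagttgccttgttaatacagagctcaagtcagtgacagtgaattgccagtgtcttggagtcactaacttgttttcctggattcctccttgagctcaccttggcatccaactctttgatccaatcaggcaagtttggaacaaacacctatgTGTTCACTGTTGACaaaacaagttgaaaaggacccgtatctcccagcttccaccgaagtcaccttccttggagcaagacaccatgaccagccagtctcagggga
Atp6v0a4 promoter, chr6:38124537-38124836, minus strand: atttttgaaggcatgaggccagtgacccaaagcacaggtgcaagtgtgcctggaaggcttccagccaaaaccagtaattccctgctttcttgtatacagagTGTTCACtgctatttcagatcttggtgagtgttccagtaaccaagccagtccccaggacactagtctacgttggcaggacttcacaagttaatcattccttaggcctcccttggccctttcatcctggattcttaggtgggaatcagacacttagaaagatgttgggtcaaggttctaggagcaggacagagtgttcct
Aqp6 promoter, chr15:99600950-99601249, plus strand: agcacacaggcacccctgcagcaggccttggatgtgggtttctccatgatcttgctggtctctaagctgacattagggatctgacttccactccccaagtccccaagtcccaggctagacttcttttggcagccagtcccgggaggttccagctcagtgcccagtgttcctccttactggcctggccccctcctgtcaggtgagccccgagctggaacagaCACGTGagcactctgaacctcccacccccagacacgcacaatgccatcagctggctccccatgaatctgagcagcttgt
The full TGTTTAC was found in 1 of the 7 promoters, that of Atp6v1b1, 98 bases before the start, and in 3.65% of all 32851 promoters of the table. TGTTNAC was found in 3 of the 7, against 10.4% of all promoters. These were Atp6v1b1 at the same place, Atp6v0a4 149 bases before the start, and Atp6v1g3 at neighbouring places 54 and 47 bases before the start. ACGTG was found in 1 of the 7, Aqp6, against 19.6% of all promoters. There it stands on both strands, 29 and 28 bases before the start, since the overlapping matches make up the palindrome CACGTG. The windows of Foxi1, Dmrt2 and Slc26a4 held none of these letters. Such matches describe the sequence and do not show that a factor binds.

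Signals are log2 values as deposited, so a difference of 1 is a doubling, and bright and dim probes of different genes cannot be ranked against each other. In the comparison of the groups with limma over 22206 clusters, 184 clusters passed an adjusted p of 0.05, 74 of them higher and 110 lower in the IR PT2385 group. The groups also differed in sex-linked transcripts. The Y-linked gene Eif2s3y had 3.27, 3.04 and 3.34 in the IR PT2385 arrays and 9.09, 9.24 and 9.28 in the IR vehicle arrays, while in the IR PT2385 group Uty fell by 5.67 and Kdm5d fell by 3.15. In every value below, PT2385 and the sex of the animals cannot be told apart. Array medians were 6.24 to 6.25 in the IR PT2385 group and 6.20 in each IR vehicle array, and the median difference over all clusters was 0.02.

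The intercalated cell genes had mostly higher values in the IR PT2385 group, by amounts that did not pass the test over all clusters. Of the 10 genes, 9 had a positive difference, where 53.5% of all clusters did. The median of the 10 differences was 0.40. All 3 IR PT2385 arrays lay above all 3 IR vehicle arrays for 7 genes, a pattern found in 11.6% of all clusters. The opposite pattern was found for 0 of the 10 genes and in 9.13% of all clusters. With limma 0 of the 10 passed an adjusted p of 0.05, where 0.829% of all clusters did. At an unadjusted p under 0.05 the count was 5, all higher, where 7.94% of all clusters were higher and 6.54% lower at that level. These counts are not 10 separate observations, since the genes varied together. Within the IR PT2385 group replicate 1 was the highest for 8 genes and replicate 3 the lowest for 7. In whole cell isolates, more cells of a type and more RNA per cell cannot be told apart.

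**Figure D1:**
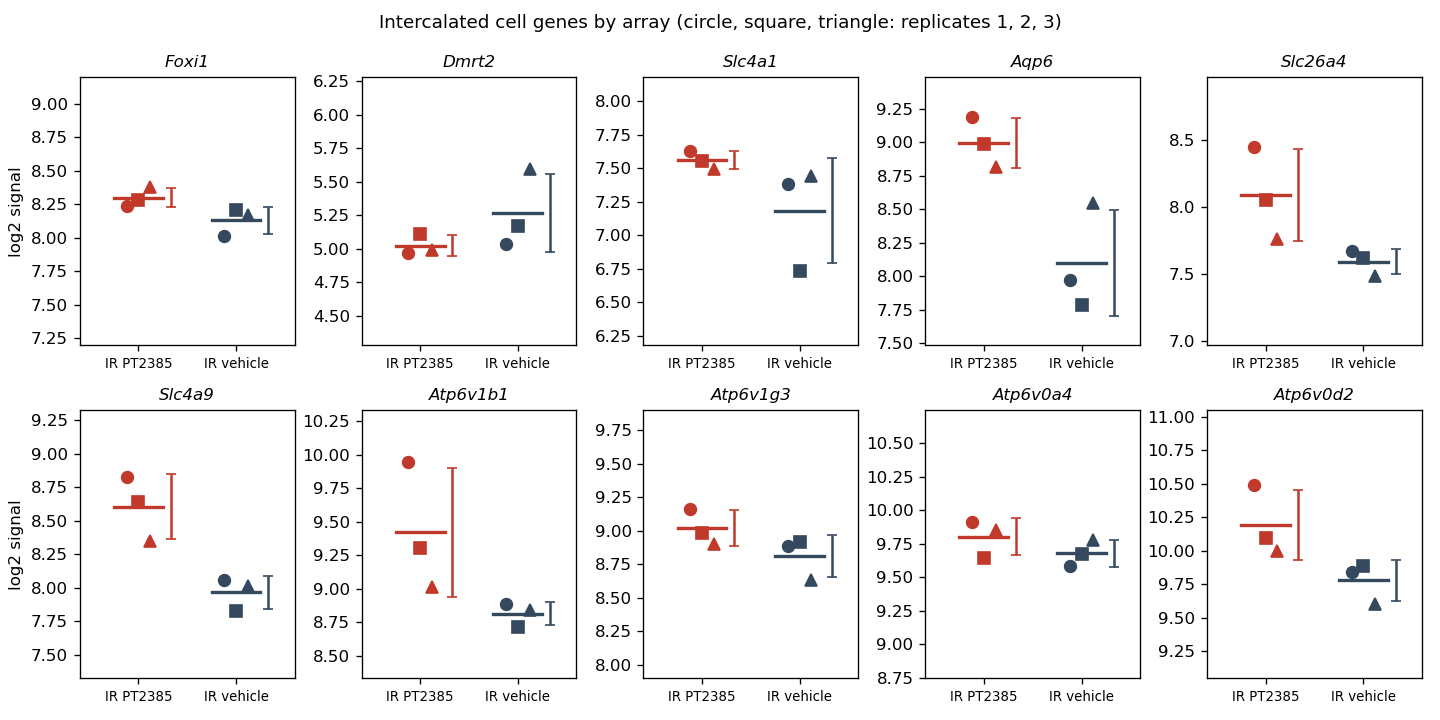
The log2 signal of the 10 intercalated cell genes in each array, with the IR PT2385 arrays (red) left of the IR vehicle arrays (blue). Lines are group means, bars at the side are 1 SD, and every panel spans the same number of log2 units. Aqp6 and Slc4a9 show the widest gaps between groups, and Dmrt2 is the only gene with the lower mean in IR PT2385.

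Foxi1, the regulator, lay above the range of the background control probes in every array. Its signal was 8.24, 8.28 and 8.38 in the IR PT2385 arrays and 8.02, 8.21 and 8.17 in the IR vehicle arrays. The groups did not overlap, but the lowest IR PT2385 value and the highest IR vehicle value were only 0.03 apart. That gap is smaller than the one between array medians (6.24 to 6.25 in IR PT2385, 6.20 in IR vehicle). The Foxi1 groups therefore do not stay apart when arrays are centred on their medians. The difference was 0.17 (SE 0.10, 95% interval -0.06 to 0.39, adjusted p = 0.472 by limma), and without IR vehicle replicate 1 it was 0.11. Unlike most of the other genes, it was highest in IR PT2385 replicate 3 and lowest of that group in replicate 1.

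Dmrt2 encodes a second transcription factor, with a DM-type DNA-binding domain and gave a dim signal. It had 4.97, 5.11 and 4.99 in the IR PT2385 arrays and 5.03, 5.17 and 5.60 in the IR vehicle arrays. The groups overlapped, and IR vehicle replicate 3 stood above the rest. The difference was -0.24 (SE 0.15, 95% interval -0.58 to 0.09, adjusted p = 0.487 by limma), and without IR vehicle replicate 3 it was -0.08. The negative control probes had array medians of 4.28 to 4.47 and the background control probes ran from 2.41 to 7.47, so how much of this signal comes from the transcript is not known.

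Among genes of type A cells, Aqp6 had the largest difference of the 10. It encodes a water channel of intracellular vesicles that also passes anions and sits beside the proton pump in these cells. Its signal was 9.19, 8.99 and 8.81 in the IR PT2385 arrays and 7.97, 7.78 and 8.54 in the IR vehicle arrays. All IR PT2385 arrays were higher, and IR vehicle replicate 3 was closer to them than to the other vehicle arrays. The difference of 0.90 (SE 0.19, 95% interval 0.45 to 1.34) is 1.86-fold, with adjusted p = 0.0959 by limma. Without IR vehicle replicate 3 it was 1.12 and passed, with adjusted p = 0.0333. Without IR PT2385 replicate 2, adjusted p = 0.325, the highest over the alternatives tried.

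Slc4a1, the basolateral chloride-bicarbonate exchanger of type A cells and also the band protein of the red cell membrane, had 7.63, 7.56 and 7.49 in the IR PT2385 arrays and 7.38, 6.73 and 7.44 in the IR vehicle arrays. The groups did not overlap, by a gap of 0.05, and IR vehicle replicate 2 was far below the other vehicle arrays. The difference was 0.37 (SE 0.18, 95% interval -0.03 to 0.78, adjusted p = 0.382 by limma), and without IR vehicle replicate 2 it was 0.15. The group SD was 0.07 in the IR PT2385 arrays and 0.39 in the IR vehicle arrays. Its IR vehicle mean of 7.19 lies inside the range of the background control probes. Because red cells make this protein, erythroid markers were read beside it. Of 11 erythroid markers 5 were measured, 0 with a positive difference and 5 with a negative one, and their mean log2 signal was 4.71 to 4.72 in the IR PT2385 arrays and 4.88 to 5.03 in the IR vehicle arrays. Those levels are near the negative control medians, and their direction was opposite to that of Slc4a1. Epb42, a red cell membrane skeleton gene, differed by -0.57 and Klf1, an erythroid transcription factor gene, by -0.28, neither past the threshold.

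Both exchangers of type B cells had higher values in all IR PT2385 arrays. Slc4a9, a basolateral anion exchanger of these cells, had 8.82, 8.64 and 8.34 in the IR PT2385 arrays and 8.06, 7.82 and 8.01 in the IR vehicle arrays. The groups were clearly apart, with the lowest IR PT2385 value 0.29 above the highest IR vehicle value. The difference of 0.64 (SE 0.14, 95% interval 0.33 to 0.95) is 1.56-fold and had the smallest p of the 10, with adjusted p = 0.0935 by limma. Without IR PT2385 replicate 3 it was 0.77 with adjusted p = 0.0426. Over all alternatives its adjusted p ran up to 0.329.

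Slc26a4, whose product pendrin exchanges chloride for bicarbonate at the luminal membrane, had 8.44, 8.05 and 7.76 in the IR PT2385 arrays and 7.67, 7.61 and 7.49 in the IR vehicle arrays. The IR vehicle arrays were close together while the IR PT2385 arrays were spread, with replicate 1 highest and replicate 3 just above the vehicle values. The difference was 0.49 (SE 0.16, 95% interval 0.12 to 0.87, 1.41-fold, adjusted p = 0.237 by limma). Without IR PT2385 replicate 1 it was 0.31, and without replicate 3 it was 0.66.

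**Figure D2:**
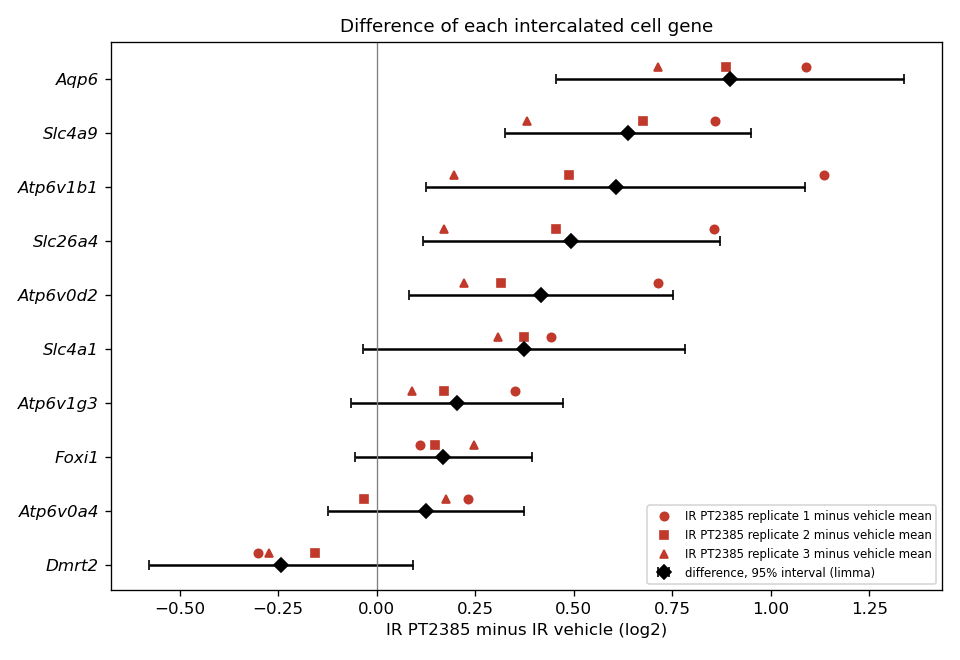
Difference between IR PT2385 and IR vehicle (log2) for the 10 intercalated cell genes. Black diamonds and bars are limma's difference with its 95% interval, and red symbols are the separate IR PT2385 arrays minus the IR vehicle mean. The intervals of Aqp6, Slc4a9, Atp6v1b1, Slc26a4 and Atp6v0d2 lie above 0, before adjustment over all clusters.

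The V-ATPase is built from a cytosolic sector that splits ATP and a membrane sector that carries protons, and intercalated cells use particular isoforms of several subunits in both. Atp6v1b1, the kidney and inner ear isoform of the nucleotide-binding B subunit, had 9.95, 9.30 and 9.01 in the IR PT2385 arrays and 8.88, 8.72 and 8.84 in the IR vehicle arrays. IR PT2385 replicate 1 was far above every other array, and replicate 3 was near the vehicle values. The difference was 0.61 (SE 0.21, 95% interval 0.13 to 1.09, 1.52-fold, adjusted p = 0.251 by limma). It was 0.34 without IR PT2385 replicate 1 and 0.81 without replicate 3. Atp6v1g3, the kidney isoform of the G subunit in the stalk, had 9.16, 8.98 and 8.90 in the IR PT2385 arrays and 8.89, 8.92 and 8.63 in the IR vehicle arrays. These groups overlapped, since IR vehicle replicate 2 lay above IR PT2385 replicate 3, and the difference was 0.20 (SE 0.12, 95% interval -0.07 to 0.47, adjusted p = 0.471 by limma). It was 0.11 without IR vehicle replicate 3 and 0.13 without IR PT2385 replicate 1.

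In the membrane sector, Atp6v0d2, an isoform of the d subunit that couples the sectors and is also made by osteoclasts and macrophages, had 10.49, 10.10 and 10.00 in the IR PT2385 arrays and 9.85, 9.89 and 9.61 in the IR vehicle arrays. All IR PT2385 arrays were higher, and the gap between groups was 0.11. The difference was 0.42 (SE 0.15, 95% interval 0.08 to 0.75, 1.33-fold, adjusted p = 0.256 by limma), and it was 0.27 without IR PT2385 replicate 1. Of 12 macrophage and osteoclast markers 11 were measured, 7 with a positive and 4 with a negative difference, and their mean log2 signal was 6.09 to 6.20 in the IR PT2385 arrays and 6.10 to 6.36 in the IR vehicle arrays, so the groups overlapped. The lysozyme gene Lyz2 fell in the IR PT2385 group, by 1.19 (adjusted p = 0.0202 by limma), with a sign opposite to that of Atp6v0d2. That call was lost without IR vehicle replicate 3 (adjusted p = 0.0635) and without IR PT2385 replicate 2 (adjusted p = 0.131). The osteoclast fusion genes Dcstamp and Ocstamp were at or below the negative control median, with means of 3.84 and 4.44 in the IR PT2385 group and 3.71 and 4.06 in the IR vehicle group. Ocstamp had the same sign as Atp6v0d2, with a difference of 0.38 and groups that did not overlap (adjusted p = 0.280 by limma). The complement genes C1qa, C1qb and C1qc differed by 0.11, 0.23 and 0.15. Acp5, of the same list and brighter, had the opposite sign. Its difference was -0.34, with groups that did not overlap (adjusted p = 0.314 by limma). Adgre1 and Csf1r differed by -0.05 and -0.09. The part of these cells in the Atp6v0d2 value was not tested. Atp6v0a4, the kidney isoform of the a subunit through which protons pass, had 9.91, 9.64 and 9.85 in the IR PT2385 arrays and 9.58, 9.67 and 9.78 in the IR vehicle arrays. These groups overlapped, with IR PT2385 replicate 2 below the IR vehicle mean, and the difference was 0.13 (SE 0.11, 95% interval -0.12 to 0.37, adjusted p = 0.628 by limma). It was 0.07 without IR PT2385 replicate 1, 0.08 without IR vehicle replicate 1 and 0.20 without IR PT2385 replicate 2.

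Other pump subunits had differences in both directions. Of 19 measured V-ATPase subunits outside the 10 genes, 8 had a positive and 11 a negative difference, with a median of -0.02, against 0.02 over all clusters. Under the alternatives that median ran from -0.12 without IR PT2385 replicate 1 to 0.04 with quantile normalization, so its sign is not settled. Of the 19, 0 passed the threshold with limma and 3 had an unadjusted p under 0.05, 1 higher and 2 lower. Among all clusters 0.829% passed and 14.5% had an unadjusted p under 0.05, so these counts do not set the list apart. The smallest p values belonged to Atp6v0a1, a widely expressed a subunit, which differed by -0.47 (SE 0.14, adjusted p = 0.190 by limma), and Atp6v1c2, a C subunit isoform of restricted expression, which differed by 0.55 (SE 0.19, adjusted p = 0.244 by limma).

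Each intercalated isoform was then set against a widely expressed partner within the same array, a ratio that a common offset of an array cannot change. These 4 comparisons were added after the values were seen. Atp6v1b1 minus Atp6v1b2 was -0.36, -0.62 and -1.13 in the IR PT2385 arrays and -1.43, -1.74 and -1.39 in the IR vehicle arrays, a shift of 0.82. Atp6v0a4 minus Atp6v0a1 was 1.23, 0.77 and 0.77 in the IR PT2385 arrays and 0.44, 0.20 and 0.35 in the IR vehicle arrays, a shift of 0.60. In both pairs the ratio was higher in every IR PT2385 array. Atp6v0d2 minus Atp6v0d1 was 1.67, 1.28 and 1.09 in the IR PT2385 arrays and 0.80, 0.94 and 0.63 in the IR vehicle arrays, a shift of 0.56. Atp6v1g3 minus Atp6v1g1 was 0.09, 0.01 and -0.03 in the IR PT2385 arrays and -0.42, -0.21 and -0.41 in the IR vehicle arrays, a shift of 0.37. The groups did not overlap in any of the 4 pairs, and how often other gene pairs separate in this way was not computed. Among single clusters, 11.6% were higher and 9.13% lower in all IR PT2385 arrays. A 2-sided exact permutation test gave p = 0.1 for each pair, and 0.1 after adjustment over the 4 pairs. This is the smallest p that 3 arrays against 3 can give, so the test could not pass the threshold for any pair. Its p only restates that the groups did not overlap, in pairs chosen after the values were seen, and no conclusion is drawn from it. All 4 partners had negative differences, which add to the shifts: -0.47 for Atp6v0a1, -0.21 for Atp6v1b2, -0.16 for Atp6v1g1 and -0.14 for Atp6v0d1. The groups of Atp6v0a4 and Atp6v1g3 on their own overlapped. Other subunits could have served as partners. The a subunit genes Tcirg1 and Atp6v0a2 differed by 0.13 and -0.13, and the G subunit gene Atp6v1g2 by 0.03. Pairs with these were not made, so the shifts hold only for the partners chosen.

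**Figure D3:**
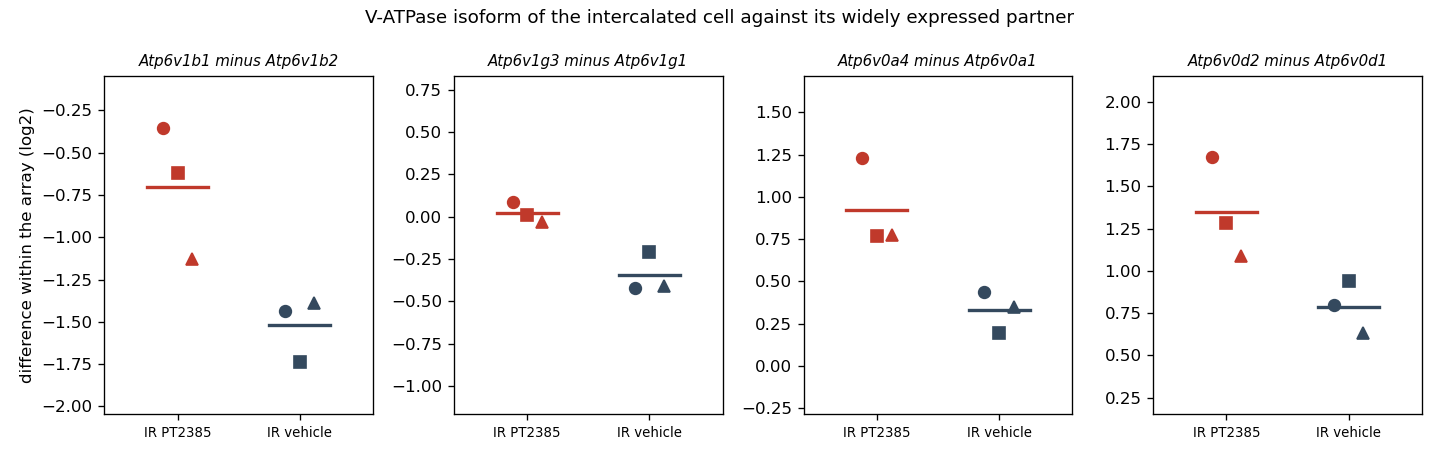
Log2 signal of each intercalated V-ATPase isoform minus that of its widely expressed partner within the same array, with IR PT2385 arrays (red) left of IR vehicle arrays (blue). Circles, squares and triangles are replicates 1, 2 and 3, lines are group means, and the IR PT2385 arrays lie above the IR vehicle arrays in all 4 panels. The height of a panel's values depends on probe brightness, so only the gap between groups can be read.

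The arrays of the IR PT2385 group were not alike. Within that group replicate 1 was the highest for 8 of the 10 genes and replicate 3 the lowest for 7. After each gene was centred on its own mean, the 10 genes averaged 0.36, 0.15 and 0.04 in IR PT2385 replicates 1, 2 and 3, and -0.18, -0.26 and -0.10 in the IR vehicle replicates. The median of the 10 differences was 0.29 without IR PT2385 replicate 1 and 0.46 without replicate 3.

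The mean levels of marker lists for neighbouring cells and segments were also higher in every IR PT2385 array, though the groups of some single markers overlapped. The 10 measured principal cell markers averaged 0.38, 0.31 and 0.16 in the IR PT2385 arrays and -0.56, -0.16 and -0.12 in the IR vehicle arrays on the same centred scale. The difference was positive for all 10 markers (median 0.53), where 53.5% of all clusters were positive. With limma 0 passed the threshold, where 0.829% of all clusters did. At an unadjusted p under 0.05 the count was 7, all higher, where 7.94% of all clusters were higher. The sodium channel subunit gene Scnn1b differed by 0.54 (adjusted p = 0.0535 by limma) and the water channel gene Aqp2 by 1.10 (adjusted p = 0.0552 by limma). The 8 markers of the distal convoluted tubule and the loop of Henle averaged 0.98, 0.40 and 0.05 in the IR PT2385 arrays and between -0.49 and -0.47 in the IR vehicle arrays. Their median difference was 0.82, with 0 past the threshold and 8 at an unadjusted p under 0.05, all higher. The shares over all clusters are those given for the principal cell markers. The calcium-binding protein gene Calb1 (1.62) and the sodium-chloride cotransporter gene Slc12a3 (0.55) had the smallest p. The part of tubule composition in the intercalated values was not tested.

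Proximal tubule markers spread among arrays without separating the groups. The 9 measured markers averaged 0.54, -0.01 and -0.53 in IR PT2385 replicates 1, 2 and 3 and 0.08, -0.22 and 0.14 in the IR vehicle replicates, with a median difference of 0.03. Within the IR PT2385 group, replicate 1 had the highest and replicate 3 the lowest mean for both the proximal markers and the 10 intercalated genes. Of the 9 proximal markers 5 had a positive and 4 a negative difference, and 1 passed the threshold. That gene, the organic anion transporter gene Slc22a6, fell in the IR PT2385 group, by 0.97 (adjusted p = 0.00572 by limma). The 6 neutrophil markers averaged -0.74, -0.36 and 0.14 in the IR PT2385 arrays and 0.25, 0.46 and 0.25 in the IR vehicle arrays, in the reverse order to the intercalated genes, and the granulocyte receptor gene Csf3r fell by 1.04 (adjusted p = 0.0326 by limma). The Csf3r call was lost without IR vehicle replicate 1, 2 or 3 or without IR PT2385 replicate 2, with adjusted p between 0.0971 and 0.150. Csf3r means of 5.60 in the IR PT2385 group and 6.63 in the IR vehicle group lie inside the range of the background control probes. The 6 endothelial markers had a median difference of 0.06, with 0 past the threshold and 0 at an unadjusted p under 0.05 by limma. Of all clusters 14.5% were under that level. The smallest p values of the list were those of Tek (0.20) and Cdh5 (-0.14).

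**Figure D4:**
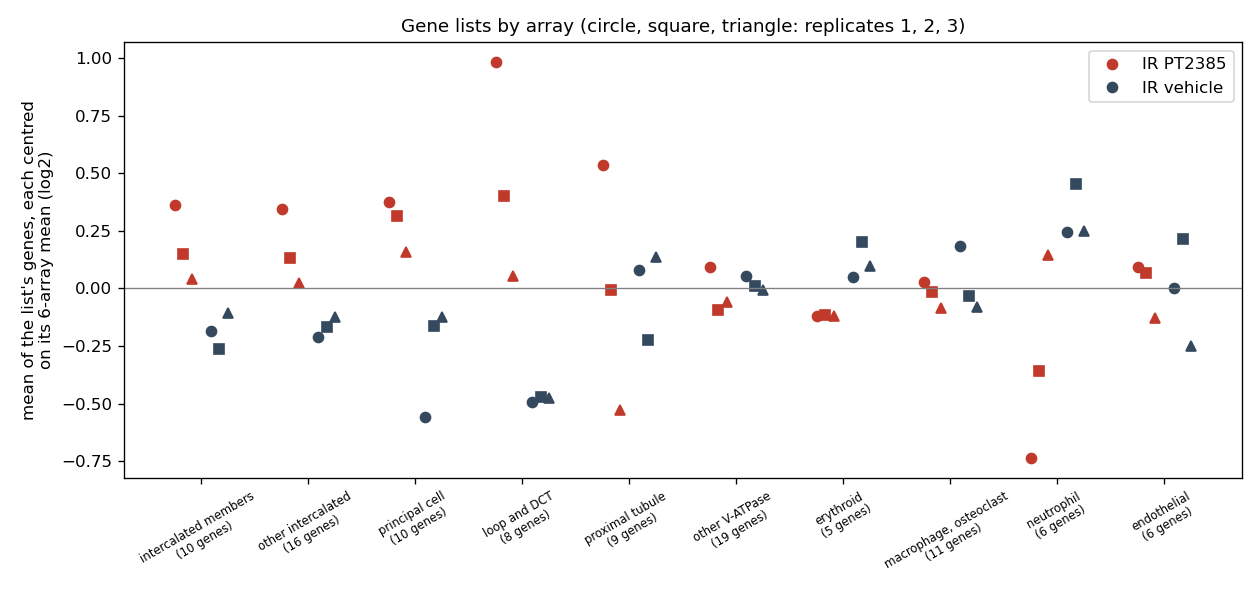
Mean of each gene list in each array, every gene first centred on its mean over the 6 arrays (log2), with IR PT2385 arrays (red) left of IR vehicle arrays (blue). Symbols mark replicates as in the plot of single genes. Intercalated, principal cell, and loop and distal lists are higher in all IR PT2385 arrays, while the proximal, macrophage and endothelial lists and the other V-ATPase subunits overlap between groups.

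Further intercalated cell genes, listed for their known expression there, also had mostly positive differences. Of 19 listed 16 were measured, 15 with a positive difference, and the median was 0.27. Their centred mean was 0.34, 0.13 and 0.02 in IR PT2385 replicates 1, 2 and 3 and -0.21, -0.17 and -0.12 in the IR vehicle replicates, with the IR PT2385 replicates in the same order as for the 10 genes. Of the 16, 1 passed the threshold and 6 had an unadjusted p under 0.05, all 6 higher. Over all clusters 53.5% had a positive difference, 0.829% passed the threshold and 7.94% were higher at an unadjusted p under 0.05. The gene that passed, Bsnd, encodes barttin, a chloride channel subunit that the thick ascending limb also makes. Bsnd had 8.21, 7.82 and 7.50 in the IR PT2385 arrays and 6.62, 6.44 and 6.94 in the IR vehicle arrays, and rose by 1.18 (SE 0.19, adjusted p = 0.0373 by limma). Its IR vehicle signals lie inside the range of the background control probes, so no fold is given. That call was lost without IR vehicle replicate 1, 2 or 3 or without IR PT2385 replicate 2, with adjusted p between 0.0643 and 0.177.

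Signals and sensors of acid-base balance were mixed. Of 13 measured 7 had a positive and 6 a negative difference, with a median of 0.07. The 1 that passed was Cftr, a chloride channel gene that mouse type B cells express along with other epithelia, and its sign was opposite to that of Slc26a4 and Slc4a9. Cftr had 5.94, 6.21 and 6.40 in the IR PT2385 arrays and 7.06, 7.34 and 7.03 in the IR vehicle arrays, and fell by 0.96 on the log2 scale (SE 0.14, adjusted p = 0.0270 by limma). All 6 values lie inside the range of the background control probes. The call was lost without IR vehicle replicate 1, 2 or 3 or without IR PT2385 replicate 2, with adjusted p between 0.0751 and 0.142. Acid-base genes of other segments had 4 positive and 4 negative differences among 8 measured, with a median of 0.05. With limma 0 passed the threshold and 1 had an unadjusted p under 0.05, where 14.5% of all clusters did. That gene was the proximal sodium-proton exchanger gene Slc9a3 (0.24), and the next smallest p was that of the anion exchanger gene Slc4a2 (-0.22).

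The H,K-ATPase catalytic gene Atp4a, the subject of the series title, encodes another proton pump that intercalated cells can use. Its signal was 8.43, 7.99 and 7.48 in the IR PT2385 arrays and 7.28, 7.12 and 7.49 in the IR vehicle arrays, again with replicate 1 highest and replicate 3 lowest among the IR PT2385 arrays, and it differed by 0.67 (adjusted p = 0.230 by limma). Atp12a differed by 0.25 and the beta subunit gene Atp4b by -0.10, neither past the threshold. The IR vehicle mean of Atp4a, 7.30, lies inside the range of the background control probes. So do the means of Atp12a (4.96 in IR PT2385, 4.71 in IR vehicle) and Atp4b (4.84 and 4.95).

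The genes whose pattern over the 6 arrays was most like the mean of the 10 were Etnk1, Cox6c, Tmx2, Prox1 and Idh3b, with Pearson's r between 0.996 and 0.997 among 14063 clusters ranked. With 6 arrays in 2 groups such values mainly carry the group difference and the order of the IR PT2385 arrays, and they are given as a description. Prox1 had 7.39, 7.05 and 6.76 in the IR PT2385 arrays and 6.25, 6.15 and 6.43 in the IR vehicle arrays, a difference of 0.79 (adjusted p = 0.0817 by limma). Etnk1 differed by 0.62 and the other 3 by 0.17 to 0.23, and none of the 5 passed the threshold.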

How the data were processed

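RNA was labelled with biotin and measured on Affymetrix whole-transcript arrays, 1 per sample, per the labels' protocols. The deposited values are log2 signals per transcript cluster. The submitters' processing notes name Transcriptome Analysis Console. How signals were background-corrected, normalized and summarised is not given in the sources used here. Of 28846 rows, 6640 were controls and the remaining 22206 were tested without a filter. The platform annotation named 19572 of these, and Entrez gene IDs changed 0 symbols. Groups were compared with limma 3.58.1 (lmFit and eBayes, treatment the only term) in R 4.3.3. The 2-sided p-values were adjusted by Benjamini-Hochberg over all clusters, with a threshold of 0.05, and the script was tested on simulated data. Differences are IR PT2385 minus IR vehicle. With 3 arrays per group precision is limited, and p-values measure only how these samples vary, which may be technical.

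The genes, lists and naming rule were chosen with earlier results of these data known. The rule named all 10 genes, the 5 most alike by correlation and, of each other list, the genes past the threshold or otherwise the 2 with the smallest unadjusted p. Planned protein comparisons were not made. Alternatives were a replicate block, other scalings, filters on dim signals, a single cluster for each gene, a trended robust prior, array weights, no X and Y chromosomes, and omission of each array.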

Additional observations from a re-analysis of the deposited data

How the results depend on the processing

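All 9 positive differences stayed positive and that of Dmrt2 stayed negative in every alternative in which they could be computed. Dmrt2 was left out by the filter at the median of all clusters. The number of genes of the 10 past the threshold was 2 with array weights (Slc4a9, adjusted p = 0.0345, and Aqp6, adjusted p = 0.0342) and 0 to 1 when single arrays were left out. It was 0 under every other alternative. The clusters past the threshold over the whole table were 456 with array weights and 42 to 179 with 1 array left out, against 184. The cause was not tested. The count of genes whose groups did not overlap, in either direction, was 6 with median-centred arrays and 9 with quantile normalization or cyclic loess. In the main comparison it was 7, all higher in the IR PT2385 group. The directions and the share over all clusters were not computed for these alternatives. The replicate numbers did not pair the samples, since same-numbered arrays deviated with correlations of 0.14, 0.03 and -0.06, and arrays did not all correlate best with their own number. With the replicate number as a block, 178 clusters and 0 of the 10 genes passed.

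Each group holds 3 arrays, and calls of single genes depend on which arrays are kept. The dim probe of Dmrt2 and the IR vehicle signal of Slc4a1 lie within the range of the background controls, and how this affects their differences was not tested.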
